A study of Mus musculus with 3 samples.

Results

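The osteoclast genes of the mouse incisor enamel organ were examined in 3 RNAseq libraries from mice aged 28 days. A set of 10 genes was chosen by symbol from the count table, covering the enzymes and receptors of the osteoclast and the RANK pathway, and all 10 were among its 20937 rows. The Stim1 cKO library came from an AmelX-iCre+; Stim1 fl/fl mouse, the Stim1 HT library from an AmelX-iCre+; Stim1 fl/wt mouse and the Stim1 Ctrl library from a Cre-negative Stim1 fl/fl mouse. Stim1 encodes a calcium sensor of the endoplasmic reticulum, and the AmelX-iCre transgene deletes its floxed alleles in ameloblasts, the enamel-forming epithelial cells, so osteoclasts in these mice were not the intended target of the deletion. The study's methods name male mice only, a point that the Stim1 cKO library did not bear out. Stim1 HT and Stim1 Ctrl served together as controls, the grouping of the study. There was 1 library a genotype and no replicate. The p-values below therefore rest on the gap between the 2 controls, themselves of unlike genotype, and do not measure the spread between mice.

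Osteoclasts are multinucleated cells that form by fusion of precursors of the macrophage lineage and dissolve bone mineral and matrix. The cytokine RANKL (Tnfsf11), made by osteoblasts, osteocytes and stromal cells, binds RANK (Tnfrsf11a) on the precursors and starts their differentiation, while the secreted decoy receptor OPG (Tnfrsf11b) binds RANKL and holds it back. Osteoclasts line the alveolar bone around the erupting and continuously growing incisor, outside the enamel organ. Among their products are tartrate-resistant acid phosphatase (Acp5) and the collagenase cathepsin K (Ctsk).

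The Stim1 cKO library held 21496136 counts, Stim1 HT (hereafter HT) 20216507 and Stim1 Ctrl (hereafter Ctrl) 28265960. Levels are given as CPM, counts relative to the library size after TMM scaling, in which 3 counts, taken as the floor, correspond to 0.117 to 0.152 CPM, and the lowest count of any osteoclast gene was 24. Intervals in brackets are exact 95% Poisson intervals and cover counting error only. The targeted gene Stim1 had 72.8 CPM in Stim1 cKO, 129 CPM in HT and 186 CPM in Ctrl (adjusted p = 0.106, edgeR), counted over the whole gene and all cell types dissected. The label names ameloblasts, and the enamel matrix gene Amelx was at 2065, 20016 and 14088 CPM in the same order, beside genes of bone, muscle, marrow and, in Stim1 cKO, retina. Xist, the RNA that coats the inactive X chromosome of female cells, had 10897 counts in Stim1 cKO, 36 in HT and 1 in Ctrl, against the stated sex. The Y-linked gene Ddx3y was read in the same libraries at 40.9, 80.6 and 80.0 CPM, so that Stim1 cKO held both transcripts. With 1 library a genotype, female RNA and the Stim1 cKO genotype cannot be told apart in any value given here, and no Stim1 cKO library without it was at hand.

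Upstream sequence is shown for 4 of the genes, the 2 resorption enzymes, the co-stimulatory receptor Oscar and the receptor RANK, since the first 3 were the ones furthest below the controls together with Dcstamp, and RANK the one nearest to them. Each sequence is 250 bases long and ends at the base before a RefSeq transcription start on GRCm38.p6, read 5′ to 3′ on the strand of the gene. Capitals mark matches, on either strand, to letters bound by transcription factors of the osteoclast lineage. The core of NFAT sites was searched as GGAAA. The core of PU.1 sites was searched as GAGGAA, which can overlap with that of NFAT. For MITF, the E-box CATGTG was used. The Ctsk window lies just upstream of the gene on chr3:95498960-95499209, plus strand. The Acp5 window on chr9:22130599-22130848, minus strand, precedes the innermost of 3 listed starts and lies within the gene's longer transcripts. The Oscar window is chr7:3616158-3616407, minus strand, and the Tnfrsf11a window chr1:105780473-105780722, plus strand.
Ctsk: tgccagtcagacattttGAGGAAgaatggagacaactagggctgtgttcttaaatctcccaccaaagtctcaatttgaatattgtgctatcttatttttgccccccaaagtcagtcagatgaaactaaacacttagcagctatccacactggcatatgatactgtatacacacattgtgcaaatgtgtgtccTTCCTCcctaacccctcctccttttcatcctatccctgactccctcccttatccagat
Acp5: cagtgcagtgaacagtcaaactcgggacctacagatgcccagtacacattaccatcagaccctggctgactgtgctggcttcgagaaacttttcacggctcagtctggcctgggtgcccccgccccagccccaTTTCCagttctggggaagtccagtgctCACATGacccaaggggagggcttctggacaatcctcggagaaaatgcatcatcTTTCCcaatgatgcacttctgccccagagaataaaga
Oscar: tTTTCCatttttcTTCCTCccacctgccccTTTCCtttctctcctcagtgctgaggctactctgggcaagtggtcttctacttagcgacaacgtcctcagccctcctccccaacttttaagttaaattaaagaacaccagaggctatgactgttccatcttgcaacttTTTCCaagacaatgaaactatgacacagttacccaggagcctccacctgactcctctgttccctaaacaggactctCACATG
Tnfrsf11a: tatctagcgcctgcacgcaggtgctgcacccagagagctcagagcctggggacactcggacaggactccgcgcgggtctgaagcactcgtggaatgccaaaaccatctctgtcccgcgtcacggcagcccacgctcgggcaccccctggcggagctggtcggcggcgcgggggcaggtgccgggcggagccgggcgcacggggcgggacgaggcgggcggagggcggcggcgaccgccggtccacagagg
Ctsk held 2 PU.1 cores and no NFAT core. The Acp5 window shown, the richest of the 3, held 2 NFAT cores and 1 MITF E-box, whereas the others held 1 NFAT core each and no E-box. Oscar held 3 NFAT cores, 1 PU.1 core and 1 MITF E-box. None of these letters occurred in the Tnfrsf11a window, whose GC content of 73.6% was above the 43.2% of Ctsk. A window of Calcr, a gene over 2-fold below both controls, held none of them either, at 70.8% GC. The other Calcr window and that of Tnfsf11 held 1 NFAT core each. Of 32851 mouse promoters cut to the same length, 55.6% held an NFAT core, 23.3% a PU.1 core and 12.3% CATGTG, so that the matches are a description of these windows only. The letters TGANTCA of AP-1, found in 6.75% of promoters, and CACGTG, found in 6.02%, were in none of the 9 windows of the 6 osteoclast genes with an entry.

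All 10 osteoclast genes had a lower level in Stim1 cKO than in either control, where 42.1% of the 18702 genes tested did. For 7 of the 10, the genes outside the RANK pathway, the level was over 2-fold below both controls, against 8.23% of all genes. The other three, RANK, RANKL and OPG, stayed within 2-fold of the nearer control. The median log2 fold change, Stim1 cKO against the grouped controls, was -1.81 over the 10 genes, -2.01 over the 7 and -0.55 over RANK, RANKL and OPG, beside -0.01 over all genes tested. Fewer osteoclasts in the dissected tissue, less RNA per osteoclast and another mix of the remaining tissues cannot be told apart in such bulk libraries. Which cells the RNA of these genes came from was not tested.

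**Figure D1:**
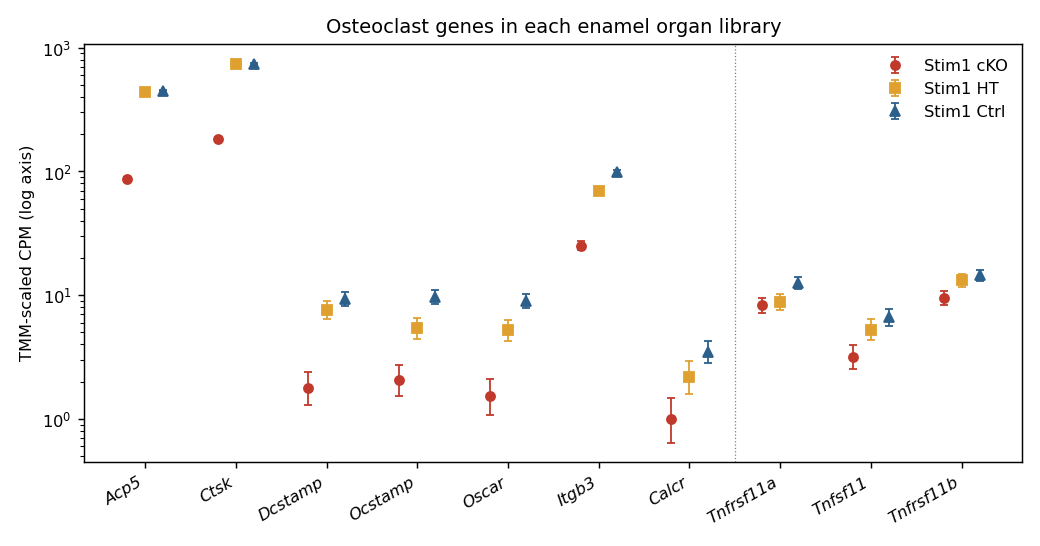
Level of each osteoclast gene in TMM-scaled CPM (log axis) in the Stim1 cKO, Stim1 HT and Stim1 Ctrl library, with exact 95% Poisson intervals. The Stim1 cKO point is the lowest of the 3 for every gene, and for the 3 RANK pathway genes right of the dotted line it lies nearer to the controls.

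The enzymes were the most abundant of the set. Cathepsin K cleaves the collagen of the bone matrix and is the main protease of the resorption pit. Ctsk (chr3:95499256-95509362, plus strand, GRCm38) had 4459 counts in Stim1 cKO, 14553 in HT and 19092 in Ctrl, which correspond to 184 CPM (179 to 190), 739 CPM (727 to 751) and 742 CPM (731 to 753). The level was 4.02-fold lower in Stim1 cKO, with a log2 fold change of -2.01 ± 0.36 (SE, adjusted p = 0.0363, edgeR). The 2 controls had overlapping intervals, far above that of Stim1 cKO.

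Tartrate-resistant acid phosphatase is the enzyme by which osteoclasts are stained in sections. Acp5 (chr9:22126727-22135711, minus strand) had 2094 counts in Stim1 cKO, 8665 in HT and 11471 in Ctrl, or 86.5 CPM (82.8 to 90.3), 440 CPM (431 to 449) and 446 CPM (438 to 454). Both controls were alike and far above Stim1 cKO. The level was 5.12-fold lower, the largest difference among the 10 genes, with a log2 fold change of -2.36 ± 0.34 (SE, adjusted p = 0.0258, edgeR). Exons of Acp5 overlap those of 6530413G14Rik, and how reads in the overlap were assigned to the 2 genes is not known. The count of Acp5 per count of Ctsk was 0.470 in Stim1 cKO (95% Wilson interval 0.446 to 0.495), 0.595 in HT (0.580 to 0.611) and 0.601 in Ctrl (0.587 to 0.615), so the intervals of the controls overlapped and that of Stim1 cKO lay below them.

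The genes of cell fusion were less abundant. DC-STAMP and OC-STAMP are membrane proteins needed for precursors to fuse into multinucleated cells. Dcstamp (chr15:39745930-39760938, plus strand) had 43 counts in Stim1 cKO, 150 in HT and 241 in Ctrl, or 1.78 CPM (1.29 to 2.39), 7.62 CPM (6.45 to 8.94) and 9.37 CPM (8.22 to 10.6). Its log2 fold change was -2.25 ± 0.53 (SE, adjusted p = 0.0615, edgeR). Here the intervals of the controls overlapped each other, and neither reached that of Stim1 cKO. Ocstamp (chr2:165393760-165400405, minus strand) had 50 counts in Stim1 cKO, 107 in HT and 248 in Ctrl, or 2.07 CPM (1.53 to 2.72), 5.43 CPM (4.45 to 6.56) and 9.64 CPM (8.48 to 10.9). The 3 intervals did not overlap, and the controls themselves lay 0.83 apart on the log2 scale, the widest gap between controls in the set. The log2 fold change of Ocstamp was -1.87 ± 0.62 (SE, adjusted p = 0.118, edgeR).

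Among the surface receptors, integrin beta 3 pairs with the alpha V chain to attach the osteoclast to bone. Itgb3 (chr11:104608000-104670476, plus strand) had 610 counts in Stim1 cKO, 1378 in HT and 2553 in Ctrl, or 25.2 CPM (23.2 to 27.3), 70.0 CPM (66.3 to 73.8) and 99.2 CPM (95.4 to 103). It was 3.36-fold lower in Stim1 cKO, with a log2 fold change of -1.75 ± 0.34 (SE, adjusted p = 0.0420, edgeR), and its 3 intervals were apart. The gene is also expressed by megakaryocytes and platelets.

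OSCAR is a collagen receptor that gives precursors the co-stimulatory signal needed beside RANK. Oscar (chr7:3609813-3616157, minus strand) had 37 counts in Stim1 cKO, 103 in HT and 230 in Ctrl, or 1.53 CPM (1.08 to 2.11), 5.23 CPM (4.27 to 6.34) and 8.94 CPM (7.82 to 10.2). The log2 fold change was -2.21 ± 0.64 (SE, adjusted p = 0.0887, edgeR), and the controls were 0.77 apart. The calcitonin receptor carries the hormone signal that stops resorption. Calcr (chr6:3685680-3764714, minus strand) was the least abundant of the set, with 24 counts in Stim1 cKO, 43 in HT and 90 in Ctrl, or 0.991 CPM (0.635 to 1.48), 2.18 CPM (1.58 to 2.94) and 3.50 CPM (2.81 to 4.30). The intervals of its controls overlapped, and its log2 fold change of -1.52 ± 0.67 (SE, adjusted p = 0.194, edgeR) was the least precise in the set.

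The RANK pathway genes lay closer to the controls. RANKL is the ligand: Tnfsf11 (chr14:78277445-78308043, minus strand) had 77 counts in Stim1 cKO, 104 in HT and 170 in Ctrl, or 3.18 CPM (2.51 to 3.98), 5.28 CPM (4.31 to 6.40) and 6.61 CPM (5.65 to 7.68). Its log2 fold change was -0.90 ± 0.52 (SE, adjusted p = 0.288, edgeR), and the intervals of the controls overlapped each other but not that of Stim1 cKO. RANK is the receptor: Tnfrsf11a (chr1:105780718-105847981, plus strand) had 200 counts in Stim1 cKO, 174 in HT and 324 in Ctrl, or 8.26 CPM (7.16 to 9.49), 8.83 CPM (7.57 to 10.2) and 12.6 CPM (11.3 to 14.0). Stim1 cKO and HT were indistinguishable by their counting intervals, and Ctrl was above both. With a log2 fold change of -0.38 ± 0.44 (SE, adjusted p = 0.587, edgeR), RANK was the only gene of the 10 whose controls lay further from each other than Stim1 cKO lay from its nearer control.

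OPG is the decoy receptor. Tnfrsf11b (chr15:54250619-54278484, minus strand) had 229 counts in Stim1 cKO, 259 in HT and 373 in Ctrl, or 9.46 CPM (8.27 to 10.8), 13.1 CPM (11.6 to 14.9) and 14.5 CPM (13.1 to 16.0), with a log2 fold change of -0.55 ± 0.37 (SE, adjusted p = 0.349, edgeR). The intervals of its controls overlapped each other but not that of Stim1 cKO. The balance of ligand and decoy sets how much RANKL can reach RANK. The count of Tnfsf11 per count of Tnfrsf11b was 0.336 in Stim1 cKO (95% Wilson interval 0.260 to 0.435), 0.402 in HT (0.320 to 0.504) and 0.456 in Ctrl (0.380 to 0.546). All 3 intervals overlapped, and a difference in this ratio was not detectable at this depth.

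The thresholds of the study, an adjusted p under 0.01 with a change over 2-fold, were passed by none of the 10 genes in edgeR, and 0.0749% of all genes tested did, all of them higher in Stim1 cKO. At an unadjusted p under 0.05, 6 of the 10 passed, all lower, as did 13.4% of all genes in that direction. At an adjusted p under 0.05, Acp5, Ctsk and Itgb3 passed, where 2.88% of all genes passed in the lower direction. DESeq2, the tool of the study, called the same 3 genes lower, against 4.71% of all genes, with adjusted p = 3.10e-13 for Acp5, 4.14e-10 for Ctsk and 0.000212 for Itgb3. Dcstamp had an adjusted p = 0.0120 by DESeq2 and missed the threshold, and for the remaining 6 genes it lay between 0.0374 and 0.748.

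**Figure D2:**
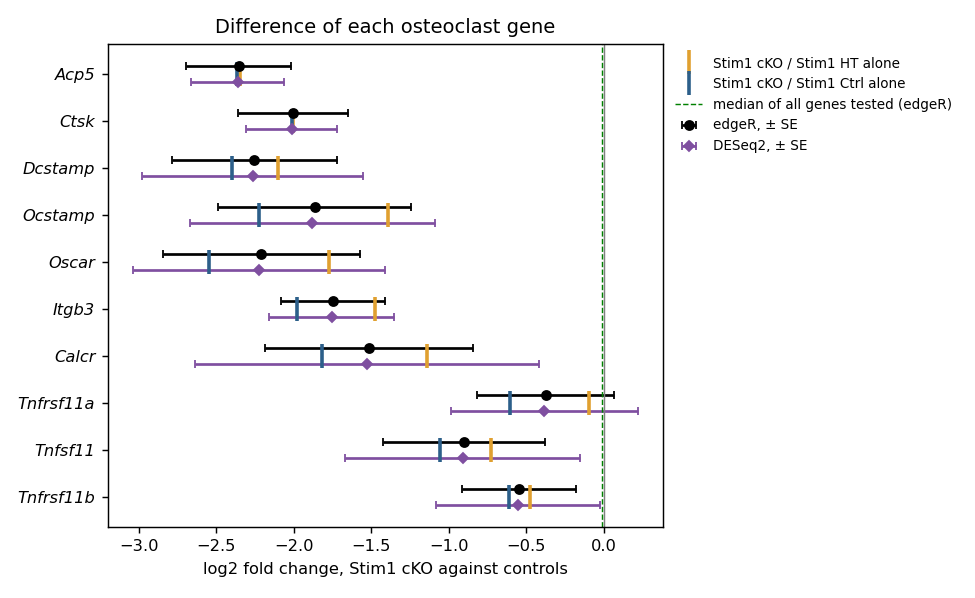
Log2 fold change of each osteoclast gene, Stim1 cKO against the controls, by edgeR (black) and DESeq2 (purple) with SE, and the ratio to each control library alone (orange and blue ticks). Every tick lies below 0, and the 3 RANK pathway genes at the bottom lie closest to the median of all genes (green line).

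The 2 controls were also compared with each other. HT and Ctrl were over 2-fold apart for none of the 10 genes. Over all genes the share was 13.5%, too low for none of 10 to be read as particular to the set. For 9 of the 10 genes the controls lay closer together than Stim1 cKO lay to the nearer of them. The level was lower in HT than in Ctrl for all 10 genes. The shares of all genes for these counts of 9 and 10 were not computed, so neither is read as particular to the set. The gap was 0.01 for Ctsk and 0.02 for Acp5, the 2 genes with the most counts, and was widest for Ocstamp.

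Per kilobase of exon, the order of the levels was the same at the top of all 3 libraries, with Ctsk first, followed by Acp5, Itgb3 and Tnfrsf11b. Ctsk was at 122 CPM per kilobase in Stim1 cKO, 489 in HT and 491 in Ctrl, and Acp5 at 42.6, 217 and 220 CPM per kilobase. Calcr was the lowest in each library, at 0.253, 0.558 and 0.894 CPM per kilobase. The genes between them changed places. In Stim1 cKO, RANKL and RANK at 1.42 and 1.38 CPM per kilobase ranked above Oscar, Dcstamp and Ocstamp at 0.565 to 0.828, whereas in both controls Oscar and Dcstamp ranked above RANKL, at 2.83 to 4.84 against 2.36 and 2.95 CPM per kilobase.

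The further genes of the osteoclast were read from lists by function. Of 14 genes of the resorption machinery, 9 were below both controls and 3 over 2-fold so, with a median log2 fold change of -0.58. Mmp9, a gelatinase of osteoclasts and neutrophils, had the largest difference, at 89.5 CPM in Stim1 cKO, 420 CPM in HT and 649.8 CPM in Ctrl (log2 fold change -2.58, adjusted p = 0.0351 by edgeR and 8.74e-10 by DESeq2), and was the only 1 of the 14 called by DESeq2. Siglec15, a receptor of the multinucleated cell, had 9, 30 and 41 counts. At the other end of the list, the kinase Src and creatine kinase Ckb, both expressed in many cell types, had log2 fold changes of 0.13 and 0.01.

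Of 15 genes of RANK signalling, 11 were below both controls, with none over 2-fold below both. Their median of -0.28 was -0.13 without Ctrl and -0.02 when only library sizes were used for scaling. The adaptor Traf5 and the NF-κB subunit Rela had the lowest log2 fold changes, -1.10 and -0.64, and the kinases Chuk and Ikbkb the highest, 1.51 and 0.73. Chuk, at 97.8 CPM in Stim1 cKO against 36.3 and 32.1 CPM in HT and Ctrl, was called higher by DESeq2 (adjusted p = 0.000377) and had an adjusted p = 0.0295 by edgeR. Of 9 genes of immunoreceptor co-stimulation, which are not specific to Oscar, 5 were below both controls and none was called by either tool. Their median was -0.21, and 0.05 when only library sizes were used for scaling. The adaptors Lcp2 and Tyrobp were lowest, at -0.96 and -0.94, and Blnk and Plcg2 highest, at 0.39 and 0.19.

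Of 7 transcription factors of the lineage, 3 were below both controls and 4 above both, with a median of 0.17. PU.1 (Spi1) and Jdp2 had the lowest log2 fold changes, -1.16 and -1.08, and Prdm1 and Fos the highest, 0.77 and 0.55. Nfatc1, the main transcription factor induced by RANK and named here after its values were seen, had 29.9 CPM in Stim1 cKO, 43.9 CPM in HT and 61.0 CPM in Ctrl (log2 fold change -0.81, adjusted p = 0.146, edgeR). Neither tool called any of the 7. Among repressors of the programme, Id2 and Bcl6 were above both controls, with log2 fold changes of 0.61 and 1.07, and Irf8 lay between the controls at 0.21. Neither tool called any of these 3.

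Of 6 cytokines that promote osteoclast formation, 4 were over 2-fold above both controls, where 19.1% of all genes were. Their median of 1.98 was 1.33 without Ctrl and 0.23 with a minimum mean of 50 counts, a filter that drops low-count genes such as Il6. Il1b had 165 counts in Stim1 cKO, 9 in HT and 8 in Ctrl (log2 fold change 4.14 ± 0.60, adjusted p = 0.0258 by edgeR and 0.00142 by DESeq2) and was called by DESeq2. Il6 had 18, 3 and 2 counts, at or under the floor in the controls. Csf1, the macrophage growth factor that precursors need, had a log2 difference of -1.01 (adjusted p = 0.136, edgeR), and Il34, which shares its receptor, was at 0.12.

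**Figure D3:**
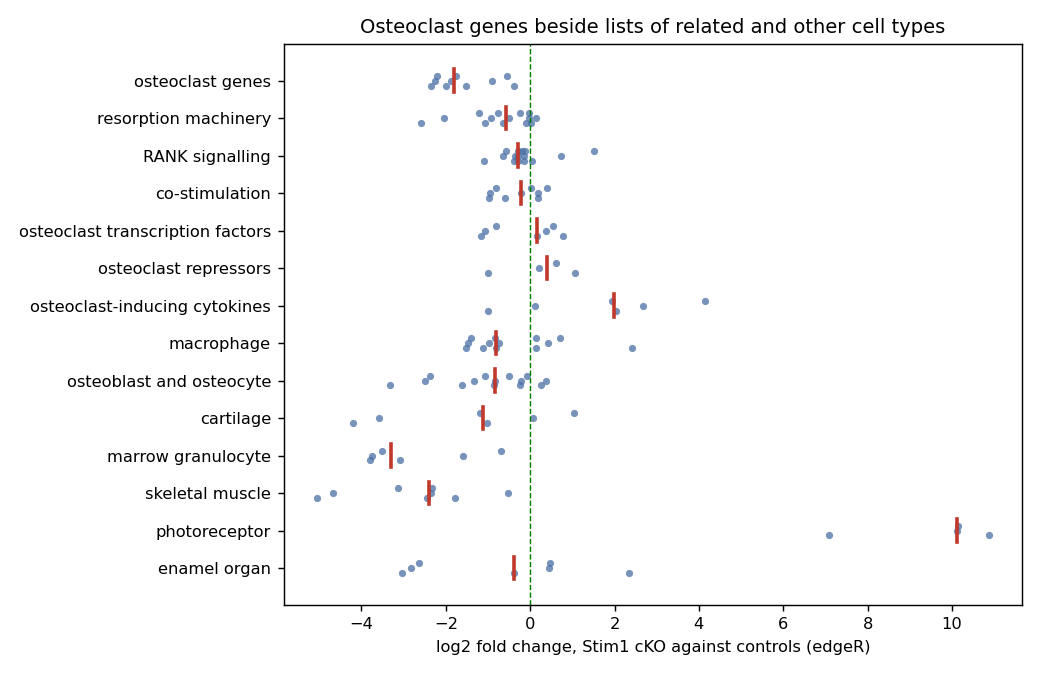
Log2 fold change (edgeR, Stim1 cKO against the controls) of each tested gene of the osteoclast set and 13 other lists, with the median of each list (red bar) and of all genes (green line). The osteoclast genes, all below 0 with a median of -1.81, lie lower than the lists of their signalling pathway, and the marrow and muscle lists lie lower still.

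Markers of other cells moved in the same libraries, and their part in the osteoclast values was not tested. Of 13 macrophage genes, 8 were below both controls and 4 above both, with a summed level of 254 CPM in Stim1 cKO, 377 CPM in HT and 410 CPM in Ctrl. Csf1r, the receptor for CSF1 on macrophages and osteoclast precursors, was the lowest, at -1.51 on the log2 scale (adjusted p = 0.0386 by edgeR and 0.000240 by DESeq2), followed by Mrc1 at -1.47, while Mertk was at 0.70 and Cd14 at 2.42. Of 14 genes of osteoblasts and osteocytes, 11 were below both controls, with a summed level of 33138, 43488 and 66836 CPM, which collagen genes dominate, and log2 fold changes from -3.32 for Mepe and -2.49 for Spp1 to 0.25 for Bglap and 0.38 for Runx2. All 6 marrow granulocyte genes were below both controls, from Mpo at -3.79 and Ngp at -3.75 to S100a9 at -1.59 and S100a8 at -0.70, with a summed level of 51.4, 213 and 195 CPM.

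The tissues around the enamel organ differed as well. All 8 skeletal muscle genes were below both controls, with a summed level of 3698 CPM in Stim1 cKO, 15358 CPM in HT and 20475 CPM in Ctrl, from Myh7 at -5.05 and Myh3 at -4.67 to Tnnt3 at -1.78 and Myh1 at -0.53. Of 6 cartilage genes, 3 were below both controls, and their summed level was 98.2, 499.6 and 745 CPM in the same order, with Col2a1 at -4.19 and Col9a1 at -3.58 against Comp at 0.06 and Matn1 at 1.05. Photoreceptor genes went the other way, at 884 CPM summed over 4 genes in Stim1 cKO against 1.47 and 1.13 CPM. Of 7 enamel organ genes, 4 were below both controls, from Amelx at -3.05 and Ambn at -2.83 to Amtn at 0.46 and Odam at 2.35. How much the 3 dissections differed in bone, marrow and muscle cannot be told apart from genotype with 1 library each.

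The osteoclast genes were therefore also read relative to Csf1r within each library, an alternative chosen after seeing the data. Per count of Csf1r, 5 of the 10 genes were still below both controls, where 3.98% of all genes were. Acp5 was at 2.57 per Csf1r count in Stim1 cKO (95% Wilson interval 2.37 to 2.78), 4.91 in HT (4.67 to 5.17) and 4.34 in Ctrl (4.16 to 4.52). Ctsk was at 5.46 (5.07 to 5.89), 8.25 (7.85 to 8.67) and 7.22 (6.93 to 7.51) in the same order. For both enzymes the Stim1 cKO interval lay below those of the controls.

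For Dcstamp the ratio was 0.0527 in Stim1 cKO (0.0388 to 0.0715), 0.0850 in HT (0.0720 to 0.1004) and 0.0911 in Ctrl (0.0798 to 0.104), and the intervals of Stim1 cKO and HT were just apart. Oscar at 0.0453, 0.0584 and 0.0869 and Itgb3 at 0.748, 0.781 and 0.965 were also lowest in Stim1 cKO, but with intervals that overlapped those of HT. Ocstamp at 0.0613, 0.0607 and 0.0937 and Calcr at 0.0294, 0.0244 and 0.0340 lay between the controls. The RANK pathway genes were above both controls on this scale. Its denominator Csf1r was itself lower in Stim1 cKO, at -1.51 on the log2 scale, and in CPM these genes were below both controls. RANK was at 0.245 per Csf1r count in Stim1 cKO (0.210 to 0.286), 0.0986 in HT (0.0844 to 0.115) and 0.122 in Ctrl (0.109 to 0.137). RANKL was at 0.0944 in Stim1 cKO (0.0747 to 0.119), 0.0590 in HT (0.0484 to 0.0718) and 0.0642 in Ctrl (0.0550 to 0.0750). For RANKL the intervals of Stim1 cKO and Ctrl overlapped.

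**Figure D4:**
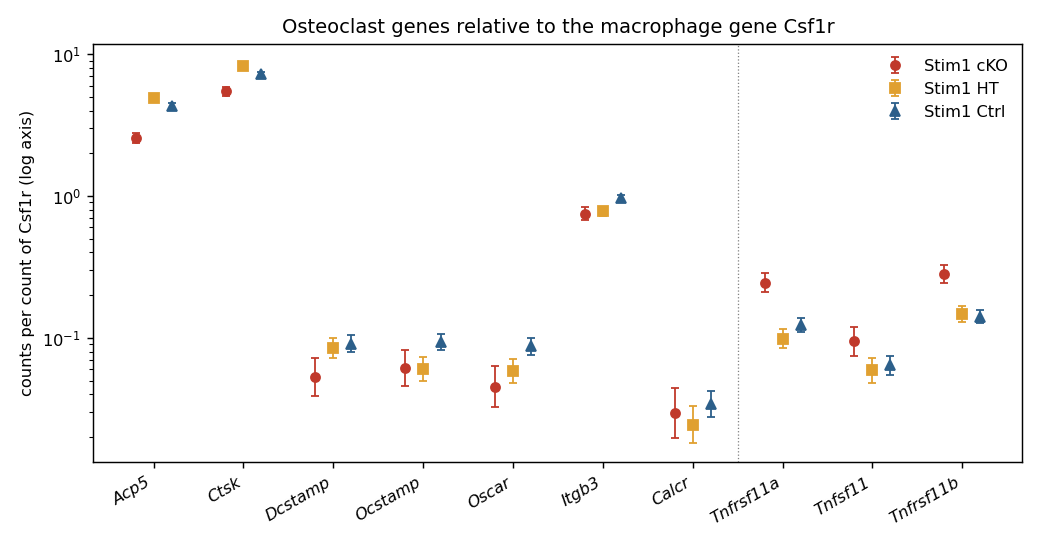
Counts of each osteoclast gene per count of Csf1r (log axis) in the 3 libraries, with 95% Wilson intervals. Acp5, Ctsk and Dcstamp remain lowest in Stim1 cKO with intervals below both controls. The 3 RANK pathway genes right of the dotted line are highest in Stim1 cKO, where Csf1r itself had a lower level than in both controls. For RANKL (Tnfsf11) the intervals of Stim1 cKO and Ctrl overlap.

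RANKL and OPG, which osteoblast-lineage cells make, were read in the same way against Sp7, a transcription factor of osteoblasts named here after its values were seen. OPG was at 0.222 per Sp7 count in Stim1 cKO (0.193 to 0.256), 0.123 in HT (0.108 to 0.140) and 0.136 in Ctrl (0.122 to 0.152), so Stim1 cKO was above both. RANKL was at 0.0747 (0.0593 to 0.0941), 0.0495 (0.0406 to 0.0602) and 0.0620 (0.0531 to 0.0724) in the same order, and the Stim1 cKO interval overlapped those of both controls. Sp7 itself was lower in Stim1 cKO, at 42.6 CPM against 107 CPM in HT and 107 CPM in Ctrl (log2 fold change -1.32, edgeR). In CPM, OPG and RANKL were below both controls. Against the summed counts of the 13 macrophage genes, Ctsk was at 0.724, 1.96 and 1.81 and Acp5 at 0.340, 1.17 and 1.09 in Stim1 cKO, HT and Ctrl, so both remained lower in Stim1 cKO. RANK was at 0.0325 (0.0282 to 0.0374), 0.0234 (0.0202 to 0.0272) and 0.0307 (0.0275 to 0.0343) on that scale, with the intervals of Stim1 cKO and Ctrl overlapping. The macrophage sum holds 8 genes below both controls and 4 above both. Among the 4, Cd14 had 526, 108 and 69 counts and Mertk 1272, 545 and 947 in Stim1 cKO, HT and Ctrl. Such genes enlarge the denominator in Stim1 cKO and lower all ratios to it there.

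The genes whose profile over the 3 libraries was nearest to that of Ctsk were sought over 14977 genes whose counts averaged 50 or more, by Euclidean distance of log2(CPM + 1) centred on its mean. The nearest outside the lists were Rcn3 at a distance of 0.0339, the secreted collagen-associated protein gene Cthrc1 at 0.0435, Tmem233 at 0.0752, Cacng6 at 0.0819 and the caveolin gene Cav1 at 0.0832. Cthrc1 had 26.1 CPM in Stim1 cKO, 111 CPM in HT and 112 CPM in Ctrl. Among the listed genes the nearest were the osteocyte gene Sost at 0.0830 and the muscle gene Tnnt3 at 0.191, ahead of Dcstamp at 0.266 and Acp5 at 0.279. With 3 libraries, nearness describes only these levels.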

How the data were processed

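RNAseq was analysed in 3 enamel organ libraries, 1 a genotype. The authors filtered their paired-end reads for quality, mapped them with STAR and deposited a table of unnormalized read counts by gene symbol. The aligner version, build, annotation, counting tool and strand setting are not given in the sources used here. The study's methods name a directional NEBNext kit with poly-A enrichment and the labels a SMARTER kit. The table holds only genes with at least 1 count in every library, and rows whose symbol had become a date (25) stayed in as genes.

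Stim1 cKO was tested against the 2 control libraries with edgeR 4.0.16 (R 4.3.3), using TMM factors, filterByExpr (18702 genes kept, all 10 osteoclast genes among them) and a quasi-likelihood F test, with p-values adjusted by Benjamini-Hochberg over all genes. The common dispersion was 0.106 and the prior degrees of freedom 4.15. The SE given for edgeR was derived from the test, as the absolute log2 fold change divided by the square root of F. DESeq2 1.42.0, other scalings, other filters and thresholds, and each control alone were the alternatives. Log2 ratios of 1 library to 1 used a prior count of 2 and no test. The script was also run on simulated data whose controls shared the same mean, unlike the control libraries here, so no result above rests on that run.

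Levels carry exact Poisson intervals and ratios of 2 genes' counts Wilson intervals, both at 95% and for counting error only. Positions and exon lengths are from GENCODE M21 (GRCm38), which holds 20712 of the symbols and all 10 osteoclast genes, and upstream sequences from RefSeq on GRCm38.p6, with entries for 6 of the 10. Named by rule were the 10 genes, Stim1, up to 2 highest and 2 lowest fold changes of a list, and the 5 genes outside the lists nearest to Ctsk. Outside this rule, Nfatc1 and Sp7 were named after their values were seen. Sost was named as the listed gene nearest to Ctsk, Xist and Ddx3y for the sex of the libraries, and 6530413G14Rik for its overlap with Acp5. A gene of the repressor list is not reported here. The osteoclast genes and the lists were chosen with earlier results of these data known.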

Additional observations from a re-analysis of the deposited data

How the results depend on the processing

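All 10 osteoclast genes kept a log2 fold change below 0 under DESeq2, RLE factors, library sizes only, TMM without mitochondrial and enamel matrix genes, and with no filter or a minimum mean of 50 counts, and against either control alone. With library sizes only, the median of all genes moved to 0.25, and the osteoclast genes ranged from -2.10 for Acp5 to -0.11 for Tnfrsf11a. Per Csf1r count, 4 genes turned: Calcr to 0.031, Tnfrsf11a to 1.16, Tnfsf11 to 0.62 and Tnfrsf11b to 0.96, since Csf1r itself was lower. The co-stimulation median turned to 0.046 with library sizes only. The cartilage median, -1.11, was -1.73 without Stim1 HT and 0.23 without Stim1 Ctrl. The 14 calls over all genes became 1987 with DESeq2, 50 with RLE factors, 6 with library sizes only, 907 with no filter, 6 at a minimum mean of 50 counts and 1811 at an adjusted p under 0.05. Calls among the osteoclast genes went from 0 to 3 with DESeq2, 1 (Acp5) with no filter and 3 at an adjusted p under 0.05. The cause of these changes was not tested. Per exon length, the ratio of RANKL to OPG was 0.506 in Stim1 HT and 0.574 in Stim1 Ctrl. Without either control, 1 library faced 1, which gives values but no test. No paired analysis was possible because each genotype has 1 library. For Calcr, Oscar, Dcstamp and Ocstamp, 24 to 50 counts in Stim1 cKO limit the precision.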
